A study of Homo sapiens with 18 samples.

Results

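The BCL2 family apoptosis regulators were followed at the mRNA level in human cells given a mimic of 1 of 2 related microRNAs, hsa-miR-28-5p (labelled miR-28) or hsa-miR-708-5p (labelled miR-708). The group was fixed by gene symbol. It holds 10 of the 16715 genes listed in either of 2 expression tables, namely BCL2, BCL2L1, BCL2L2, MCL1, BAK1, BOK, BCL2L11, BID, BAD and BCL2L13. All 10 were listed and passed the filter on low values in both cell lines. BAX, BBC3 and PMAIP1, relatives that are well known as p53 targets, were not counted as members.

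MCF10A is a non-tumorigenic human breast epithelial line, and hTERT RPE-1 is a retinal pigment epithelial line immortalised with telomerase. Cells of each line were collected after 72 h with 30 nM of a non-targeting siRNA (siNT), of the miR-28 mimic or of the miR-708 mimic. Polyadenylated RNA was sequenced from 3 biological replicates of each of the 3 groups, giving 9 libraries per line and 18 in all. The labels number the replicates 7 to 9 for MCF10A and 1 to 3 for hTERT RPE-1. All cells received a transfected RNA duplex, and an untransfected group was not analysed here. A mimic raises a microRNA far above its natural level in one established line, so each line is a model of acute overexpression. In such bulk samples, fewer cells of a type and less RNA per cell cannot be told apart.

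BCL2 family proteins decide whether the outer membrane of the mitochondrion stays intact. BCL2, BCL2L1 (BCL-XL), BCL2L2 (BCL-W) and MCL1 preserve the membrane by holding the killer members in check, BAK1 and BOK form pores in it, and BCL2L11 (BIM), BID and BAD are BH3-only sensors that bind the guardians or activate the pore formers. BCL2L13 is a mitochondrial member with BCL2 homology regions that is also known as a receptor for mitophagy. Gene-level values do not resolve splice forms with opposite actions, such as the long and short forms of BCL2L1 and MCL1. The forms of BCL2L11 are not resolved either.

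The 7-base seed of a microRNA, bases 2 to 8, pairs with messenger RNAs that carry its complement, usually in the 3′ UTR. According to the study, both mimics carry the same seed, so a match to it applies to both. The mature strand of hsa-miR-708-5p is shown first because its seed, in capitals, defines the matches that follow. It is encoded at chr11:79402077-79402099 on the minus strand (RefSeq, GRCh38.p14).
hsa-miR-708-5p: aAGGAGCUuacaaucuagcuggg

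The canonical 3′ UTR of each member in GENCODE 44 was searched on the transcript strand for AGCTCCT (complement of bases 2 to 8), for GCTCCTA and for the shorter GCTCCT, which both longer motifs contain. BCL2L13 was the only member with a 7-base match. It held 2 copies of AGCTCCT and 1 further GCTCCT in a 3′ UTR of 3321 bases, whereas 18.5% of the 14136 listed genes with a 3′ UTR held at least 1 match of 7 bases. BAK1, BCL2L1 and BCL2L11 held 2 copies of GCTCCT each and no longer match. Of the listed genes with a 3′ UTR, 17.0% had at least 1 GCTCCT as their best match. None of these motifs was found in the canonical 3′ UTRs of BCL2, BCL2L2, MCL1, BOK, BID or BAD. A match is a description of the sequence and not a measured binding site. The windows below, in the last exon of each gene and in the orientation of the transcript (hg38), are those of BCL2L13 and BAK1. BCL2L13 has the longest matches, and BAK1 was lower in all 4 comparisons with siNT. BCL2L11, with as many copies of GCTCCT as BAK1, rose with both mimics in MCF10A and with miR-708 in hTERT RPE-1. BCL2L1, with as many, was called lower with miR-708 in MCF10A only. The part of the matches in any of these changes was not tested. Capitals mark the match.
BCL2L13, chr22:17729807-17729835, plus strand: agctcttggtcAGCTCCTgagttaacagg
BCL2L13, chr22:17729917-17729945, plus strand: cttcctactgcAGCTCCTgctttttgctc
BAK1, chr6:33572944-33572971, minus strand: ggcctgctaagGCTCCTccttgcccaga
BAK1, chr6:33572726-33572753, minus strand: ccaccctccatGCTCCTcacctgtctag

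Each value below is an estimated read count that the authors divided by the size factor of its library, 1 table per line, so values are compared within a line. Depth, estimated from the steps between low values, was 19.4–31.7 M gene reads per MCF10A library and 23.8–40.4 M per hTERT RPE-1 library, and 3 reads corresponded to values of at most 4.02 and 4.40. The lowest member value, 71.9 for BCL2 in MCF10A, lay well above this floor. One library stood apart, since rRNA genes took 15.1% of the miR-28 replicate 1 library in hTERT RPE-1 and 4.23–7.20% of the other 8. The 6 breast epithelial markers were all listed in MCF10A, and of them only TP63 was listed in hTERT RPE-1. Of 6 retinal pigment epithelial markers, MITF, PAX6, BEST1 and RLBP1 were listed in hTERT RPE-1, where RLBP1 averaged 2.42 with siNT, within the range of the floor, and RPE65 and TYR were not listed. RPE65, BEST1 and MITF were also listed in MCF10A. BEST1 was at 795 there and at 166 in hTERT RPE-1, in tables scaled separately, so these levels are not compared. Some line markers moved with the mimics. KRT14 went to 30.4% of siNT with miR-28 and 20.7% with miR-708 in MCF10A and TP63 to 48.1% and 41.9%, while MITF went to 57.3% and 67.7% in hTERT RPE-1. KRT5 and KRT17 were also below siNT in every MCF10A library with a mimic, while CDH1 and EPCAM overlapped with siNT there. In hTERT RPE-1, BEST1 and RLBP1 were above siNT in every library with a mimic, and PAX6 was below it with miR-28 only. The part of these markers in the results for the members was not tested.

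**Figure D1:**
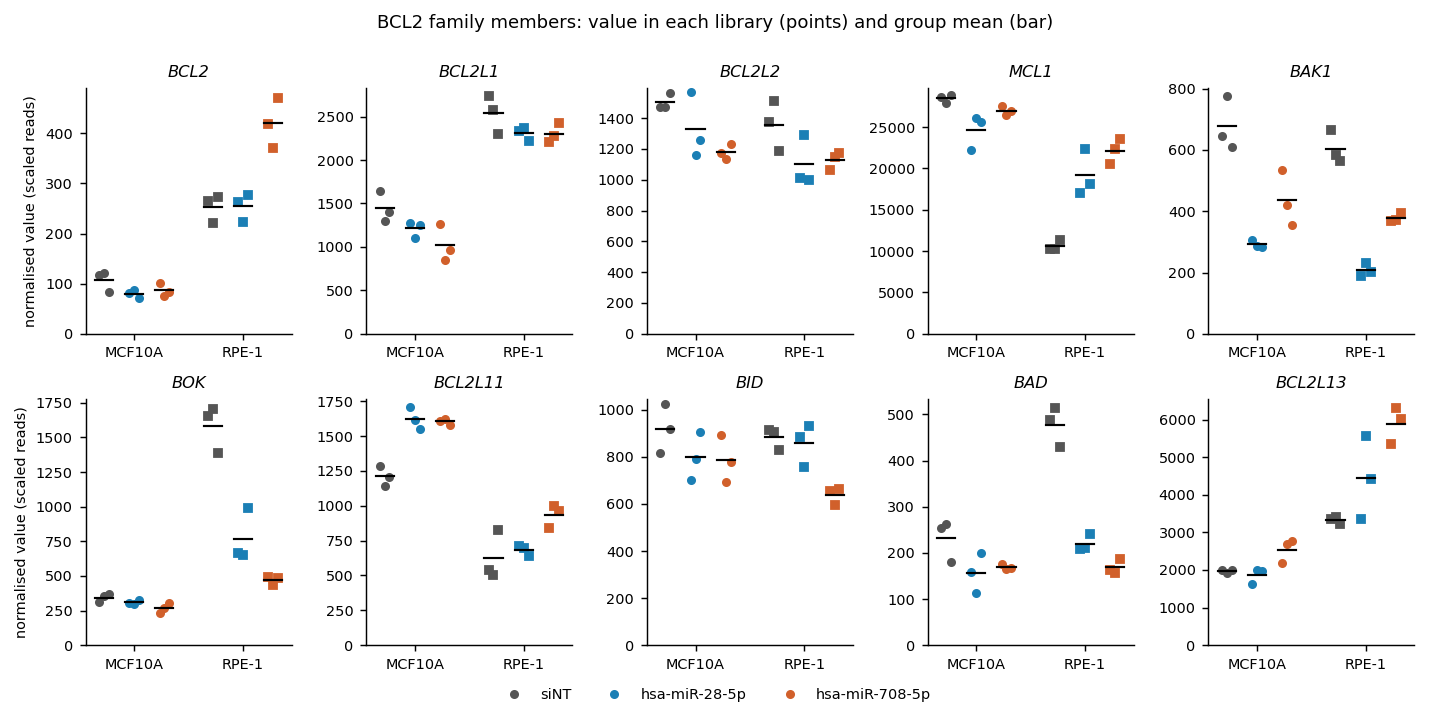
Normalised value of the 10 members in each of the 18 libraries (vertical axes, scaled reads, starting at 0; points are libraries, circles for MCF10A and squares for hTERT RPE-1; bars are means of 3). BAK1 is lower with both mimics in both lines, while MCL1 is higher with the mimics and BOK and BAD are lower in hTERT RPE-1.

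Per kilobase of the canonical transcript, MCL1 was the most abundant member in both lines and BCL2 the least abundant. With siNT in MCF10A the level of MCL1 was 7211 ± 125 per kb (mean ± SD, n = 3), followed by BCL2L1 at 562 ± 67.5 per kb. BCL2L2, BID and BCL2L13 came next at 426, 422 and 398 per kb, and neighbours in this run overlapped between libraries. BAK1, BAD and BCL2L11 formed a second overlapping run at 312, 249.8 and 238 per kb. BOK at 131 per kb and BCL2 at 15.6 per kb were separate from their neighbours.

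In hTERT RPE-1 with siNT, MCL1 stood at 2688 ± 171 per kb and BCL2L1 at 986 ± 86.3 per kb, with no overlap between them. BCL2L13 at 672, BOK at 602 and BAD at 513 per kb took the places after BCL2L1, of which only BOK and BAD overlapped. BID and BCL2L2 overlapped at 406 and 385 per kb, and BAK1 (278), BCL2L11 (122) and BCL2 (36.8 per kb) were separate. MCL1 made up 72.4% of the summed level per kb of the 10 members in MCF10A with siNT, 72.6% with miR-28 and 73.9% with miR-708. In hTERT RPE-1 this share was 40.2%, 59.4% and 61.7%, with ranges over libraries of 38.4–43.7%, 57.8–61.7% and 61.3–62.2%.

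**Figure D2:**
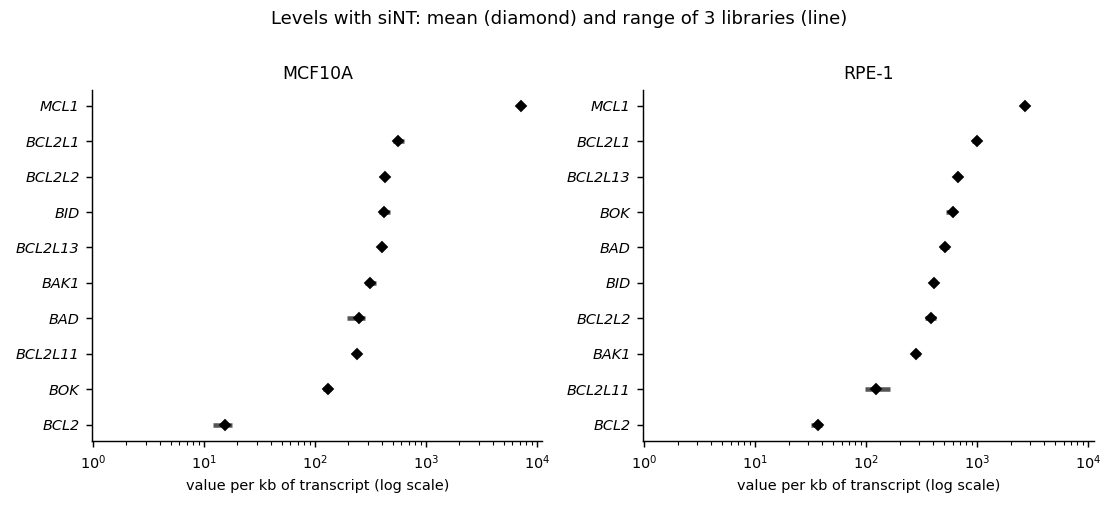
Level of each member per kb of its canonical transcript with siNT (horizontal axis, log scale), ordered within each line; diamonds are means of 3 libraries and lines their ranges. MCL1 leads in both lines, at 7211 and 2688 per kb, and BCL2 is last, at 15.6 and 36.8 per kb.

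Each mimic was compared with siNT to ask how the family responded to it. A gene was called where its Benjamini-Hochberg adjusted p, taken over all genes tested in the line, was below 0.05 (limma on log2(value + 1), a scale that understates the changes of low genes). In MCF10A, miR-28 changed 2 of the 10 members, BAK1 down and BCL2L11 up, beside 22.7% of all 14726 genes tested. With miR-708, 5 members were called in MCF10A against 32.8% of all genes. BCL2L1, BCL2L2 and BAK1 fell, and BCL2L11 and BCL2L13 rose. In hTERT RPE-1, 4 members were called with miR-28 (MCL1 up, BAK1, BOK and BAD down) against 46.8% of the 14527 genes tested. With miR-708, 8 members were called against 62.1% of all genes. BCL2, MCL1, BCL2L11 and BCL2L13 rose, and BAK1, BOK, BID and BAD fell.

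The counts of called members were thus near the share of all genes called in each comparison. The median absolute log2 fold change of the members was 0.23 and 0.36 in MCF10A with miR-28 and miR-708, and 0.35 and 0.70 in hTERT RPE-1. Over all genes tested these medians were 0.29, 0.34, 0.39 and 0.53. The signed medians of the members were -0.21, -0.32, -0.09 and -0.20 in the same order, and those of all genes lay between -0.0047 and 0.0061. The comparisons of the mimics with siNT share the siNT libraries of their line, so their values are not independent of each other.

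**Figure D3:**
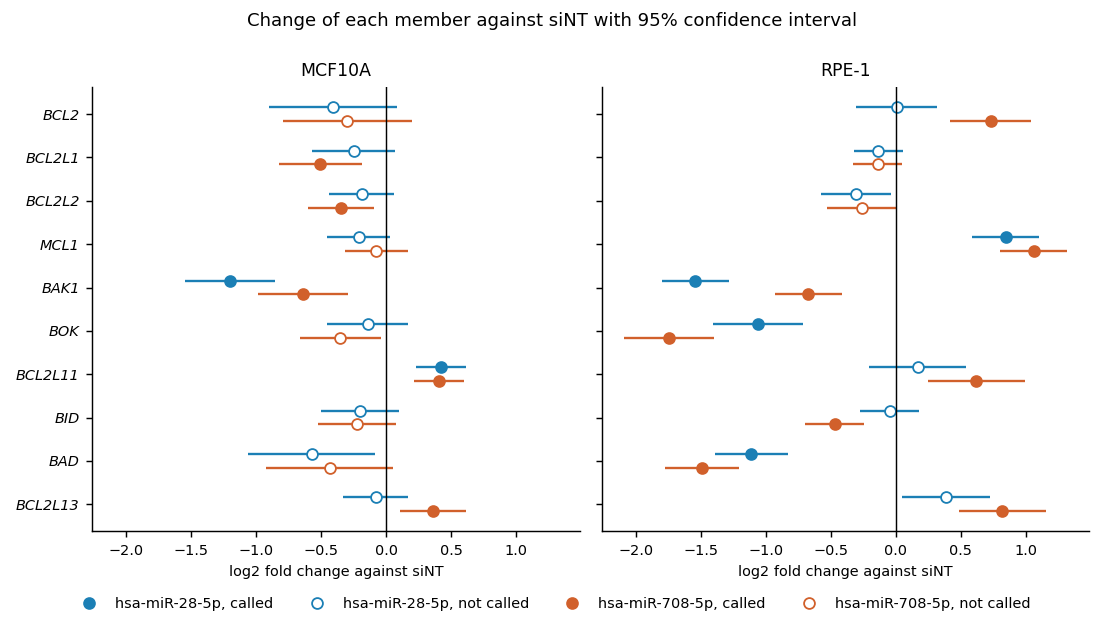
Log2 fold change of each member against siNT (horizontal axis) with its 95% confidence interval (bars), by line and mimic; filled points were called at an adjusted p below 0.05. BAK1 is the one member called in all 4 comparisons, and BCL2L1 and BCL2L2 are called with miR-708 in MCF10A only, a pattern not tested as such.

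Among the guardians, MCL1, a short-lived protein that many cells depend on for survival, moved in hTERT RPE-1. Its values were 10220.5, 10233 and 11398 with siNT, 17059, 22323 and 18108 with miR-28, and 20599.6, 22357 and 23523 with miR-708. Every library with a mimic lay above every siNT library. The log2 fold change was 0.84 ± 0.12 (SE) with miR-28 (adjusted p = 0.000237) and 1.06 ± 0.12 with miR-708 (adjusted p = 2.31e-05). In MCF10A the MCL1 values were 28666, 27925 and 28858 with siNT, 22266, 26051 and 25595 with miR-28, and 27577, 26462 and 26976 with miR-708. There all libraries with a mimic lay below those with siNT, but the log2 fold changes of -0.21 (95% CI -0.46 to 0.03) and -0.08 (-0.32 to 0.17) were not called. The second of these turned to 0.07 when the values were scaled by library size.

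BCL2, the founding guardian of the family, rose with miR-708 in hTERT RPE-1. Its values there were 265, 221 and 273 with siNT, 263, 224 and 276 with miR-28, and 418, 371 and 471 with miR-708. The miR-708 libraries did not overlap with the other 6, and the log2 fold change was 0.73 ± 0.14 (adjusted p = 0.00109). With miR-28 it was 0.01 (95% CI -0.30 to 0.32). In MCF10A, where BCL2 was low, the values were 117, 122 and 83.1 with siNT and overlapped with 80.4, 87.1 and 71.9 and with 101, 75.6 and 83.1 for the mimics. These differences of -0.41 and -0.30 on the log2 scale were not called.

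BCL2L1, which guards the membrane in many epithelial cells, had values of 1639.7, 1303 and 1399 with siNT in MCF10A, 1279.8, 1108 and 1252 with miR-28, and 1259, 849 and 969 with miR-708. All libraries with a mimic lay below those with siNT, and the change was called with miR-708 (-0.51 ± 0.15, adjusted p = 0.01997) but not with miR-28 (-0.25, 95% CI -0.57 to 0.07). The call rested on single libraries. Without siNT replicate 7 the log2 fold change was -0.42 (adjusted p = 0.0771), without miR-708 replicate 8 it was -0.38 (0.0854), and without replicate 9 it was -0.48 (0.0681). Scaling by library size gave -0.37 (0.0577). In hTERT RPE-1 the BCL2L1 values were 2299.8–2739.6 with siNT, 2217–2372 with miR-28 and 2207–2424 with miR-708. These groups overlapped, and the log2 fold changes of -0.13 and -0.14 had intervals from -0.32 to 0.05 and from -0.33 to 0.05.

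BCL2L2, a guardian related to BCL2L1, fell with miR-708 in MCF10A. The values were 1471, 1474 and 1562 with siNT, 1569.5, 1159.8 and 1256 with miR-28, and 1175, 1133 and 1231 with miR-708. The last group did not overlap with siNT (-0.35 ± 0.11, adjusted p = 0.0359). The call was lost without any of the 3 siNT libraries or of the 3 miR-708 libraries, with log2 fold changes of -0.38 to -0.32 and adjusted p of 0.0554 to 0.109. Scaling by library size gave -0.21 (adjusted p = 0.206). In hTERT RPE-1 the values were 1374, 1511 and 1186 with siNT, 1011, 1291 and 997 with miR-28, and 1063, 1147 and 1174 with miR-708. The differences there, -0.31 (95% CI -0.58 to -0.04, adjusted p = 0.0614) and -0.26 (-0.53 to 0.01, adjusted p = 0.0862), were not called. Without siNT replicate 3 they were -0.40 (0.0273) and -0.35 (0.0338), and without miR-28 replicate 2 they were -0.43 (0.0111) and -0.26 (0.0400), so that each was then called. In MCF10A, BCL2L2 was also called with miR-28 without that group's replicate 7 (-0.31, adjusted p = 0.0425). BCL2L2 shares sequence with the read-through gene BCL2L2-PABPN1, which was listed at 0.443–43.1 in MCF10A and 13.1–105 in hTERT RPE-1, so a small part of its reads could be divided between them.

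BAK1, a pore former that resides on the mitochondrial surface, was the one member called in all 4 comparisons with siNT. In MCF10A its values were 646, 775 and 609.8 with siNT, 306, 286 and 285 with miR-28, and 536, 420.2 and 356 with miR-708. In hTERT RPE-1 they were 665, 584 and 564 with siNT, 189.8, 230.5 and 200.4 with miR-28, and 367, 372 and 393 with miR-708. In both lines all siNT libraries were highest, all miR-28 libraries lowest, and miR-708 lay between them without overlap. With miR-28 the mean was 43.2% of siNT in MCF10A (log2 fold change -1.20 ± 0.16, adjusted p = 0.000735) and 34.2% in hTERT RPE-1 (-1.54 ± 0.12, adjusted p = 5.12e-06). With miR-708 it was 64.6% of siNT (-0.64 ± 0.16, adjusted p = 0.0100) and 62.5% (-0.67 ± 0.12, adjusted p = 0.000516). With miR-28, 1.43% of all genes tested in MCF10A and 2.44% in hTERT RPE-1 had a lower fold change than BAK1, and with miR-708 these shares were 10.1% and 19.8%.

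BOK, a pore former that can act without release from the guardians, fell in hTERT RPE-1 with both mimics. The values were 1652, 1704 and 1384 with siNT, 664, 652 and 987 with miR-28, and 491, 435 and 482 with miR-708. The 3 groups did not overlap. The mean was 48.6% of siNT with miR-28 (-1.06 ± 0.16, adjusted p = 0.000359) and 29.7% with miR-708 (-1.75 ± 0.16, adjusted p = 6.22e-06). In MCF10A the BOK values were 312, 351 and 367 with siNT, 307.03, 299 and 326 with miR-28, and 236, 269 and 305 with miR-708. There miR-708 lay below siNT in all libraries, but the log2 fold change of -0.35 (95% CI -0.66 to -0.04, adjusted p = 0.0755) was not called, nor was -0.14 with miR-28 (-0.45 to 0.17).

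Among the BH3-only members, BCL2L11, a potent activator of cell death, rose in MCF10A. Its values were 1287, 1144 and 1204 with siNT, 1707, 1615 and 1551 with miR-28, and 1611, 1621 and 1583 with miR-708. All libraries with a mimic lay above those with siNT, with log2 fold changes of 0.42 ± 0.09 (adjusted p = 0.00657) and 0.41 ± 0.09 (adjusted p = 0.00480). In hTERT RPE-1 the values were 540.4, 501 and 829 with siNT, 714, 696 and 639.5 with miR-28, and 839, 1002 and 966 with miR-708. Only miR-708 lay above all siNT libraries there (0.62 ± 0.17, adjusted p = 0.00849), and the difference with miR-28 was 0.17 (95% CI -0.21 to 0.54). The siNT replicate 3 value was apart from the other two. Without it the log2 fold changes were 0.84 (adjusted p = 0.000202) with miR-708 and 0.39 (adjusted p = 0.0172) with miR-28.

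BAD, a sensor that binds BCL2 and BCL2L1, fell with both mimics in hTERT RPE-1. The values were 488, 514 and 429 with siNT, 208, 210.8 and 241 with miR-28, and 164, 157 and 186 with miR-708. These 3 groups did not overlap, and the log2 fold changes were -1.11 ± 0.13 (adjusted p = 7.69e-05) and -1.49 ± 0.13 (adjusted p = 4.77e-06). In MCF10A the values were 254, 262 and 179.8 with siNT, 159.5, 114 and 199.1 with miR-28, and 175, 165 and 168 with miR-708. The differences of -0.57 (95% CI -1.06 to -0.09, adjusted p = 0.0853) and -0.43 (-0.92 to 0.05, adjusted p = 0.158) were not called, and the first was called without miR-28 replicate 9 (-0.76, adjusted p = 0.0494). BAD overlaps GPR137 on the opposite strand, and the use of strand in counting was not given in the sources used here. GPR137 had values of 313–462 with siNT, 289–305 with miR-28 and 300.4–411 with miR-708 in hTERT RPE-1. In MCF10A it had 128–174 with siNT, 192–202 with miR-28 and 179–224 with miR-708, above siNT in every library with a mimic. The part of GPR137 in the BAD values was not tested.

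BID, which links death receptors to mitochondria after cleavage by CASP8, fell with miR-708 in hTERT RPE-1. The values were 916, 908 and 829 with siNT, 887, 758 and 931 with miR-28, and 655, 597 and 663 with miR-708. The miR-708 libraries were the lowest 3 of 9 (-0.47 ± 0.10, adjusted p = 0.00228). The call was lost when the values were scaled by library size (-0.15, adjusted p = 0.221). With miR-28 the difference was -0.05 (95% CI -0.27 to 0.18), and under that scaling it was 0.04. In MCF10A the groups overlapped, from 815 to 1025 with siNT, 701 to 907 with miR-28 and 694 to 894 with miR-708, and no difference was called.

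BCL2L13, the member with the 7-base matches printed above, rose with miR-708 in both lines. In hTERT RPE-1 its values were 3352, 3419 and 3224 with siNT, 3366, 5555 and 4408 with miR-28, and 5339, 6318 and 6030.2 with miR-708. The miR-708 libraries lay above all siNT libraries (0.82 ± 0.15, adjusted p = 0.000823). With miR-28, replicate 1 lay within the siNT range and the other replicates above it, and the log2 fold change was 0.39 (95% CI 0.05 to 0.72, adjusted p = 0.0579). This is the library with 15.1% of its reads on rRNA genes. Without it the log2 fold change was 0.57 (adjusted p = 0.00214), and 5 members were called with miR-28 instead of 4. MCL1, BAK1, BOK and BAD gave 0.92, -1.48, -0.97 and -1.07 without that library.

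In MCF10A the BCL2L13 values were 2005, 1924 and 1987 with siNT, 1629, 2007 and 1976 with miR-28, and 2177, 2682 and 2765 with miR-708. The last group lay above both others, and the log2 fold change of 0.36 ± 0.12 was called (adjusted p = 0.0332). It was no longer called without any 1 of the siNT libraries (0.34 to 0.37, adjusted p = 0.0674 to 0.0891), without miR-708 replicate 8 (0.32, adjusted p = 0.112) or without replicate 9 (0.29, adjusted p = 0.128). With miR-28 the difference was -0.08 (95% CI -0.33 to 0.17).

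The mimics, matched in dose and time, were also compared with each other, 10 pairs of member values in each line. In MCF10A no member was called in the direct comparison (limma, adjusted over all genes), where 1.55% of all genes were, and 2 members had an unadjusted p below 0.05. These were BAK1 (0.56 higher with miR-708, 95% CI 0.21 to 0.91, adjusted p = 0.131) and BCL2L13 (0.44 higher, 0.19 to 0.69, adjusted p = 0.102), each with no overlap between the groups. With the replicate number as a block both were called (adjusted p = 0.0454 and 0.0252), as were 4.37% of all genes. BCL2L13 was called there without miR-708 replicate 7 (0.55, adjusted p = 0.0246). For BCL2L11 the difference was -0.02 (-0.21 to 0.18), and for the other 7 members the intervals all included 0 and lay between -0.58 and 0.63.

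In hTERT RPE-1, 4 members differed between the mimics, against 21.2% of all genes. BAK1 was higher with miR-708 by 0.87 ± 0.12 (adjusted p = 0.00124) and BCL2 by 0.72 ± 0.14 (adjusted p = 0.00628). BOK and BID were lower with miR-708, with differences of -0.68 ± 0.16 (adjusted p = 0.0124) and -0.42 ± 0.10 (adjusted p = 0.0158). Thus BAK1 fell further with miR-28, and BOK fell further with miR-708. The BID call was lost without miR-28 replicate 3 (-0.36, adjusted p = 0.0675) or miR-708 replicate 2 (-0.38, adjusted p = 0.0527), and under scaling by library size (-0.19, adjusted p = 0.178). The BOK call was lost under that scaling (-0.45, adjusted p = 0.0560).

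For the other 6 members in hTERT RPE-1 the mimics were not separated by the test. MCL1 differed by 0.22 (95% CI -0.04 to 0.47), BCL2L1 by -0.004 (-0.19 to 0.19) and BCL2L2 by 0.05 (-0.23 to 0.32). BCL2L11 (0.45, adjusted p = 0.0830), BCL2L13 (0.43, adjusted p = 0.0653) and BAD (-0.38, adjusted p = 0.0588) had intervals that excluded 0. BCL2L13 was called with the replicate number as a block (0.43, adjusted p = 0.0318). Over all genes, same-numbered libraries of the mimics correlated in their deviations in this line, and the part of this in the call was not tested. MCL1 and BCL2L13 were called without miR-28 replicate 2 (0.33, adjusted p = 0.0360, and 0.61, adjusted p = 0.00464). BCL2L11 was called without siNT replicate 3 (0.45, adjusted p = 0.0129).

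The responses of the lines were compared by subtracting the log2 fold change in MCF10A from that in hTERT RPE-1, over the 13339 genes tested in both. With miR-28, 2 members differed between the lines, against 23.4% of all genes. MCL1 responded more by 1.06 ± 0.16 (adjusted p = 0.000116), being not called in MCF10A and higher in hTERT RPE-1, and BOK gave -0.92 ± 0.21 (adjusted p = 0.00362). With miR-708, 4 members differed, against 39.8% of all genes. They were MCL1 (1.14 ± 0.16, adjusted p = 1.28e-05), BCL2 (1.03 ± 0.27, adjusted p = 0.00475), BOK (-1.39 ± 0.21, adjusted p = 2.75e-05) and BAD (-1.06 ± 0.26, adjusted p = 0.00334). For BAK1 the lines differed by -0.34 (95% CI -0.75 to 0.07) with miR-28 and by -0.03 (-0.44 to 0.38) with miR-708. The difference for BAD with miR-28 was -0.54 (-1.08 to 0.0035), and it was called without MCF10A miR-28 replicate 8 (-0.75, adjusted p = 0.0439).

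For 3 members the call on the difference between lines depended on single libraries. BCL2L13 differed by 0.47 (adjusted p = 0.0806) with miR-28, which became 0.65 (adjusted p = 0.00573) without hTERT RPE-1 miR-28 replicate 1, and by 0.46 (adjusted p = 0.0599) with miR-708. The latter was called without any 1 of 4 libraries, namely replicate 7 of miR-28 and replicate 9 of miR-708 in MCF10A and replicates 1 and 2 of miR-28 in hTERT RPE-1 (0.46 to 0.53, adjusted p = 0.0199 to 0.0494). BCL2L1 differed by 0.37 (adjusted p = 0.0891) with miR-708, which became 0.53 (adjusted p = 0.0094) without MCF10A miR-708 replicate 7. BCL2L11 differed by 0.21 (adjusted p = 0.401) with miR-708 and by 0.43 (adjusted p = 0.0189) without hTERT RPE-1 siNT replicate 3. These lines differ in tissue of origin, medium and expression table, and those cannot be told apart here.

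**Figure D4:**
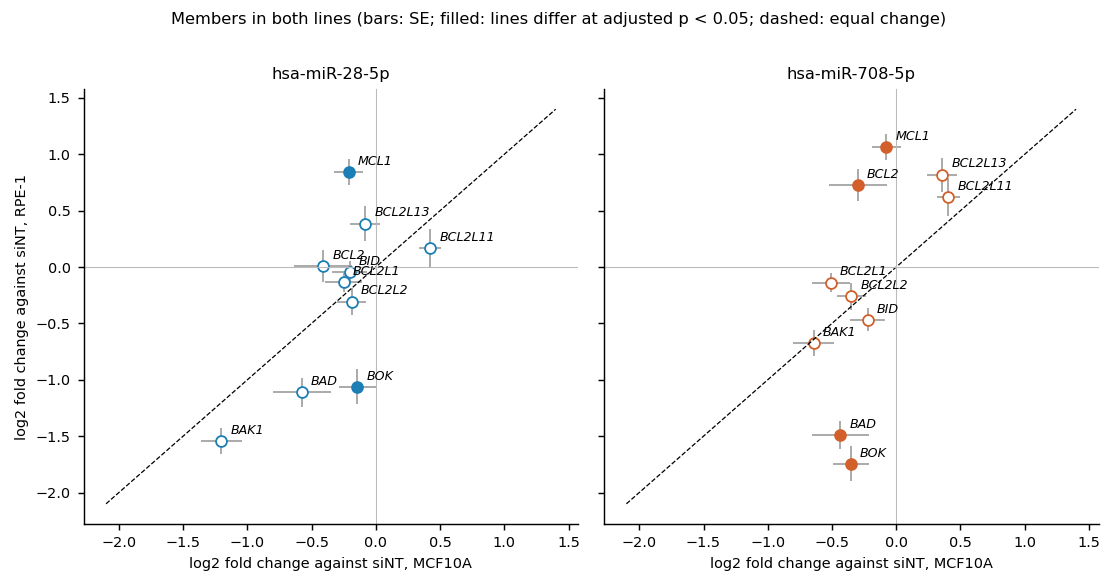
Log2 fold change of each member against siNT in MCF10A (horizontal axis) and hTERT RPE-1 (vertical axis), by mimic; bars are SE, the dashed line marks equal change, and filled points differed between lines at an adjusted p below 0.05. MCL1 lies 1.06 and 1.14 above the dashed line and BOK 0.92 and 1.39 below it, while BAK1 lies near it.

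Ratios within a library do not depend on its scaling, and 5 of them were taken between a guardian and a killer member as a description with no test. The log2 ratio of MCL1 to BAK1 rose from 5.40 ± 0.20 with siNT in MCF10A to 6.39 ± 0.18 with miR-28 and 5.97 ± 0.28 with miR-708 (mean ± SD, n = 3). In hTERT RPE-1 it went from 4.14 ± 0.20 to 6.52 ± 0.06 and 5.87 ± 0.06, which is 5.23 and 3.33 times the siNT ratio. All libraries with a mimic lay above all siNT libraries in both lines. In MCF10A both genes were below siNT in these libraries, BAK1 by more, whereas in hTERT RPE-1 MCL1 was above siNT and BAK1 below it. The ratio of BCL2L1 to BAK1 was likewise higher than siNT in every library with miR-28, by 0.95 in MCF10A and 1.41 in hTERT RPE-1. With miR-708 it overlapped with siNT in MCF10A (0.13 higher) and was 0.54 higher in hTERT RPE-1 without overlap.

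Against BCL2L11 the ratios moved in other directions. The log2 ratio of MCL1 to BCL2L11 was below siNT in every MCF10A library with a mimic, with differences of -0.64 for miR-28 and -0.48 for miR-708. In hTERT RPE-1 it was above siNT in every library, by 0.68 and 0.44. The ratio of BCL2L1 to BCL2L11 was lower than siNT in MCF10A with both mimics (-0.67 and -0.92) and in hTERT RPE-1 with miR-708 (-0.76), whereas miR-28 overlapped with siNT there (-0.30). The ratio of BCL2 to BCL2L11 was lower with both mimics in MCF10A (-0.83 and -0.71) and overlapped with siNT in hTERT RPE-1 (-0.16 and 0.11). These are ratios of messenger RNA values and not of proteins.

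**Figure D5:**
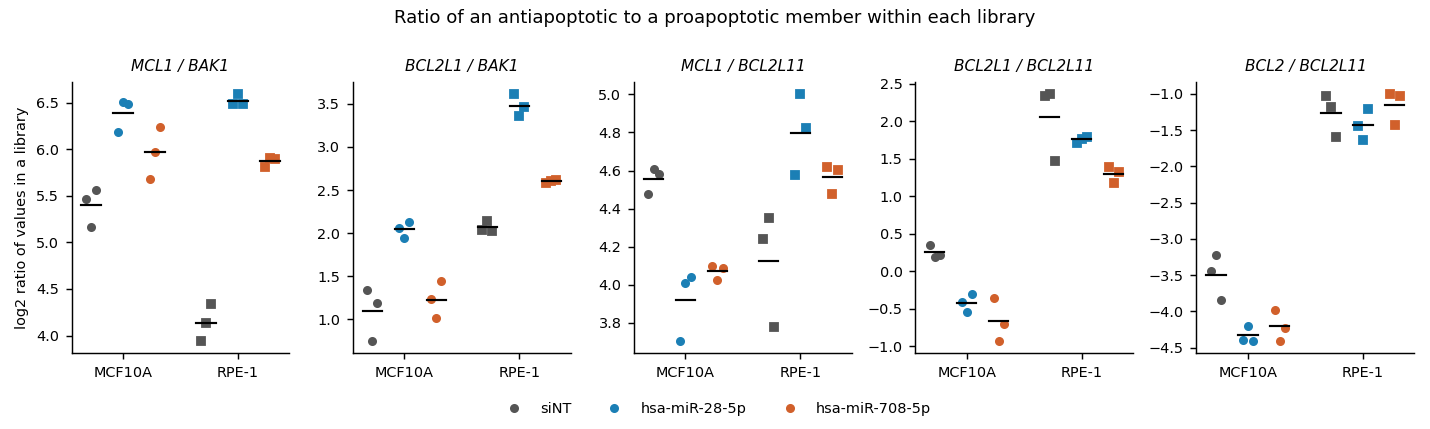
Log2 ratio of an antiapoptotic to a proapoptotic member within each library (vertical axes), by line and treatment; points are libraries and bars means of 3. The ratio of MCL1 to BAK1 is higher with both mimics in both lines, and that of MCL1 to BCL2L11 is lower in MCF10A and higher in hTERT RPE-1.

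Patterns were compared over the 18 libraries on the log2 scale after centring each gene within its line, as a description, since the libraries share treatments and scaling. Of the 45 pairs of members, BOK and BAD were most alike (Pearson r = 0.88), followed by MCL1 and BCL2L13 (r = 0.79). MCL1 and BOK were the most opposed (r = -0.89), and BCL2L11 and BID followed (r = -0.80). Among the other genes tested in both lines, the nearest to MCL1 was PLA2G4A (r = 0.96), to BAK1 RDH11 (0.95), to BOK TSTA3 (0.97), to BAD SUPT6H (0.95) and to BCL2L13 APOL3 (0.97). The nearest to BCL2 was NUP155 (0.89), to BCL2L1 HIPK1 (0.90), to BCL2L2 POM121 (0.89), to BCL2L11 TNRC6C (0.91) and to BID UBTF (0.91).

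The other genes of the pathway were taken from 4 lists written from general knowledge but with earlier results of these data known. No test set these lists against all genes. Their counts of called genes stand beside 22.7% and 32.8% of all genes called in MCF10A with miR-28 and miR-708, and 46.8% and 62.1% in hTERT RPE-1. Of 8 further BCL2 relatives, 6 were tested in MCF10A and 4 in hTERT RPE-1. In MCF10A, 1 of the 6 rose and none fell with each mimic (median log2 fold changes 0.40 and 0.34). It was BIK, a BH3-only gene of the endoplasmic reticulum, with 202 ± 21.1 for siNT, 337 ± 48.9 for miR-28 and 401 ± 83.4 for miR-708 (0.73, adjusted p = 0.0157, and 0.97, adjusted p = 0.00230). The first call was lost without siNT replicate 9 (0.66, adjusted p = 0.0601) or miR-28 replicate 9 (0.62, adjusted p = 0.0621). In hTERT RPE-1, 1 of 4 rose with miR-28, and with miR-708 3 rose and 1 fell. Among those that rose, BCL2L15 had values of 1.47–5.07 with siNT, near the floor, 2.33–4.36 with miR-28 and 10.5–19.6 with miR-708. It passed the filter on low values through the miR-708 libraries alone, so its rise is no separate result. HRK, a BH3-only gene known from neurons, went from 12.5 ± 2.0 with siNT to 31.1 ± 11.9 and 124 ± 23.8 (1.19, adjusted p = 0.00986, and 3.21, adjusted p = 1.06e-05).

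Downstream, the list of the mitochondrial arm holds genes such as APAF1, cytochrome c and the VDAC channels. Of its 15 genes, 1 rose and 1 fell in MCF10A with miR-28, 1 rose and 2 fell with miR-708, and 3 rose and 5 fell in hTERT RPE-1 with each mimic. The medians were -0.24, -0.16, -0.23 and -0.26. Called genes made up 13.3% and 20.0% of this list in MCF10A, against 22.7% and 32.8% of all genes. In hTERT RPE-1 they made up 53.3% with each mimic, against 46.8% and 62.1%. CASP9, which the apoptosome activates, rose in hTERT RPE-1 by 0.81 and 0.999, while in MCF10A it was not called.

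Upstream, the death receptor list, whose signal reaches mitochondria through BID, had 11 genes tested in MCF10A and 10 in hTERT RPE-1. In MCF10A 7 rose and 1 fell with miR-28, and 6 rose and 1 fell with miR-708, with medians of 0.57 and 0.57. The called genes were 72.7% and 63.6% of those tested, against 22.7% and 32.8% of all genes. In hTERT RPE-1 5 rose and 3 fell with each mimic, with medians of 0.47 and 0.44, and 80.0% were called with each, against 46.8% and 62.1%. FAS rose in all 4 comparisons, with 0.81 and 0.87 for MCF10A and with 1.76 and 1.71 for hTERT RPE-1. TNFRSF10D, a decoy receptor, rose with miR-28 (0.73) and fell with miR-708 (-0.63) in MCF10A. In hTERT RPE-1 it fell with miR-708 (-3.00), with values of 413 to 508 against 3122 to 4131 with siNT. Its miR-28 values there were 4177, 470 and 850, and replicate 1, the library with the high rRNA share, lay above all siNT libraries. The log2 fold change of -1.58 (adjusted p = 0.0478) became -2.48 (adjusted p = 7.57e-06) without replicate 1, and the call was lost without any 1 of the other 8 libraries (-1.67 to -0.91, adjusted p = 0.0623 to 0.15). The initiator CASP10 rose in MCF10A by 1.22 and 1.85 and was not tested in hTERT RPE-1. The first call was lost without siNT replicate 9 (0.76, adjusted p = 0.0725), miR-28 replicate 7 (1.11, adjusted p = 0.0702) or miR-28 replicate 8 (1.16, adjusted p = 0.0878).

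Of 9 caspase inhibitors and regulators of MCL1 stability, 3 rose and none fell in MCF10A with miR-28, and 4 rose and 2 fell with miR-708 (medians -0.08 and -0.0028). In hTERT RPE-1 3 rose and 3 fell, and 5 rose and 3 fell (medians 0.09 and 0.57). FBXW7, a ubiquitin ligase subunit with MCL1 among its substrates, rose in all 4 comparisons, by 0.79 and 0.82 in MCF10A cells and by 0.87 and 0.93 in hTERT RPE-1. BIRC3, an inhibitor of apoptosis protein, rose in MCF10A by 1.02 and 1.09 and in hTERT RPE-1 with miR-708 by 1.58, while 0.76 with miR-28 was not called (adjusted p = 0.172) unless replicate 1 of miR-28 was left out (1.1997, adjusted p = 0.0218). Its relative BIRC2 rose with miR-708 in MCF10A (0.42) and with both mimics in hTERT RPE-1 (0.83 and 1.38).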

How the data were processed

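RNAseq of polyadenylated RNA was analysed in 18 libraries. According to the study's methods and the submitters' processing notes, the authors aligned reads with HISAT2 2.1.0 to hg38, estimated RefSeq transcript counts by expectation maximisation in Partek, and used DESeq2 for their own tests. The signal the authors deposited is an estimated count per gene after division by the library's median-of-ratios size factor, 1 table per line, and no value is 0. Between 80.5% and 85.7% of the values below 12 lay within 0.02 of a whole multiple of their library's step, so whole reads were not recovered and no count model was used. The authors' own fold changes and p-values, also deposited, were not used.

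On the log2(value + 1) scale, genes that reached 10 in 3 or more of a line's 9 libraries were fitted with 3 group means and a moderated variance trend (limma 3.58.1, R 4.3.3). P-values were adjusted over all genes tested. Differences between lines used the Welch–Satterthwaite degrees of freedom. In simulated MCF10A values, 57 of 84 genes changed 2-fold were called, 102 of 110 changed by 2 on the log2 scale, and 8 unchanged genes. The simulation changed far fewer genes than were called in these data and drew replicates independently, so its shares need not hold here. Tables and plots were made with numpy 2.4.6, matplotlib 3.10.9 and pandas 2.3.3 in Python 3.11.15. Floors cover counting error only.

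The members and lists were chosen with earlier results of these data known. All members are named, and of each list up to 3 genes with the largest mean absolute change against siNT among those called in at least 2 of the 4 comparisons. Some genes that this rule names are not reported here. Same-numbered libraries correlated in their deviations from group means by 0.11–0.30 between each mimic and siNT in MCF10A and by 0.13–0.28 between the mimics in hTERT RPE-1, all of them above 0.1, and these libraries were taken as paired. In MCF10A this also ties the mimics to each other, although 1 of their 3 pairs correlated at only 0.025. The other pairs of groups in hTERT RPE-1 gave 0.02–0.15. The main fit did not include the pairing of libraries, which entered only through the replicate block. Alternatives were other scalings, a pseudocount of 5, no filter, no variance trend, only the 2 groups compared, a replicate block, a 2-fold minimum and each library left out.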

Additional observations from a re-analysis of the deposited data

Results flagged for a closer look

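For 6 results the response of a member was tested to differ between the lines, as the log2 fold change in hTERT RPE-1 minus that in MCF10A (limma, adjusted over all genes). With miR-28 these were MCL1 (1.06, adjusted p = 0.000116) and BOK (-0.92, adjusted p = 0.00362). With miR-708 they were MCL1 (1.14), BCL2 (1.03), BOK (-1.39) and BAD (-1.06). Every one was called with each library left out in turn.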

How the results depend on the processing

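Of 80 fitted member results, 29 were called, and 23 of these were called under each of their alternatives. The 2-fold minimum, which was applied to counts of called genes only, is not among the alternatives counted in this paragraph. Over the 541 alternatives of the called results, 28 lost the call and none changed direction. The 51 results not called became called in 43 alternatives and changed sign in 38, of 1520 alternatives in all. The cause was not tested for any of these changes. The 5 ratios did not move by more than the spread between replicates in any of 140 alternatives, which were a pseudocount of 5 and single libraries left out. Seed matches were also counted over any annotated transcript, and 1 member still held a 7-base match. By that count, 22.0% of the listed genes with a 3′ UTR held a 7-base match.

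Scaling by library size in place of the authors' size factors moved the all-gene median of the log2 fold change to 0.12 with miR-28 and 0.14 with miR-708 in MCF10A, to 0.32 with miR-708 in hTERT RPE-1 and to 0.23 between the mimics there, and the median line difference with miR-708 to 0.15. Without ribosomal RNA genes it was 0.13 for miR-28 in hTERT RPE-1. Higher genes then made up 66.2%, 67.6%, 71.9%, 84.8% and 68.5% of those called, in the order of the first 5, against 47.1%, 47.3%, 49.7%, 46.5% and 50.8%. Without ribosomal RNA genes the share was 63.2% against 49.9% for miR-28 in hTERT RPE-1. Upper quartile scaling gave 58.5% against 47.1% for miR-28 in MCF10A. With miR-708 in MCF10A, 3 members instead of 5 were called under library size scaling, with or without ribosomal RNA genes, and between the mimics in hTERT RPE-1 it called 4654 genes. The results that changed sign under library size scaling, each not called, were BCL2L13 (0.0287) with miR-28 and MCL1 (0.0664) with miR-708 in MCF10A, BCL2L11 (0.0161) and BID (0.0111) between the mimics in MCF10A, BID (0.0389) with miR-28 in hTERT RPE-1, BCL2L1 (0.1808) and BCL2L2 (0.058) with miR-708 in hTERT RPE-1, BCL2L1 (0.2292) between the mimics there, and the line difference of BAK1 with miR-708 (0.1435). Without ribosomal RNA genes the same results gave 0.0287, 0.0511, 0.0008, no change of sign for BID between the mimics, 0.0721, 0.1597, 0.0369, 0.1749 and 0.1378. Library size scaling also called MCL1 (0.45, adjusted p = 0.0252), BCL2L11 (0.68, adjusted p = 0.0155) and BCL2L13 (0.67, adjusted p = 0.0141) between the mimics in hTERT RPE-1.

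With a minimum change of 2-fold as well, 1 member was called with miR-28 and 0 with miR-708 in MCF10A, 3 with miR-708 and 0 between the mimics in hTERT RPE-1, and 1 in the line difference with miR-28. Over all genes the counts were 854, 1403 and 134 in MCF10A (miR-28, miR-708, between the mimics), 1976, 3550 and 700 in hTERT RPE-1, and 1136 and 2270 for the line differences. Without a variance trend, 3 members were called with miR-708 in MCF10A and 150 genes between the mimics there.

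With the replicate block, among the paired comparisons no call changed other than that of BCL2L13 between the mimics in hTERT RPE-1 and, between the mimics in MCF10A, those of BAK1 and BCL2L13, where 2 members and 643 genes were called. For groups in hTERT RPE-1 that share only a number, the replicate block called 6 members with miR-28, adding BCL2L2 (-0.31, adjusted p = 0.0367) and BCL2L13 (0.39, adjusted p = 0.0263), beside 48.2% of all genes. The line differences gave 3 members with miR-28, adding BCL2L13 (0.47, adjusted p = 0.0318), beside 28.2% of all genes, and 6 with miR-708, adding BCL2L1 (0.37, adjusted p = 0.0317) and BCL2L13 (0.46, adjusted p = 0.0222), beside 43.8%.

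When single libraries were left out, the called members ranged from 2 to 3 with miR-28, 2 to 5 with miR-708 and 0 to 1 between the mimics in MCF10A, from 4 to 6, 8 to 9 and 3 to 6 in hTERT RPE-1, and from 2 to 3 and 4 to 5 for the line differences. All genes called ranged from 1949 to 3950, 3174 to 5483 and 112 to 368 in MCF10A, from 5471 to 6596, 7942 to 9263 and 1512 to 4084 in hTERT RPE-1, and from 2287 to 3456 and 4619 to 5497 for the line differences. The sign changed for some uncalled results, with ranges of -0.1362 to 0.0142 for BCL2L13 with miR-28 in MCF10A. Between the mimics in MCF10A these were -0.0061 to 0.1989 for BCL2, -0.0487 to 0.0202 for BCL2L11, -0.1155 to 0.0732 for BID and -0.0752 to 0.3268 for BAD. In hTERT RPE-1 with miR-28 they were -0.0863 to 0.0965 for BCL2 and -0.1078 to 0.0402 for BID, and between the mimics -0.0421 to 0.0257 for BCL2L1 and -0.0198 to 0.1659 for BCL2L2. For the line differences they were -0.2384 to 0.0082 for BCL2L2 with miR-28, and -0.0059 to 0.1682 for BCL2L2 and -0.1695 to 0.1244 for BAK1 with miR-708.

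Depth is not limiting for the members, whose lowest value was 71.9, but 3 libraries per group leave intervals of the log2 fold change that can hide moderate differences. Values are sums over transcripts, so splice forms were not resolved, and protein was not measured. Each line was normalised as its own table.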
